A study of Saccharomyces cerevisiae with 10 samples.

Results

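Budding yeast senses glucose outside the cell, phosphorylates it as it enters, and represses the genes for other sugars while glucose is plentiful. The 10 genes described here carry these steps and were set in 5 pairs of related genes. They include the kinases HXK1 and HXK2, the glucokinases GLK1 and EMI2, and the membrane sensors SNF3 and RGT2. The other pairs are the sensor-controlled corepressors MTH1 and STD1 and the zinc-finger repressors MIG1 and MIG2. The 10 genes were taken by gene name, for these functions, from a table of 5824 features. All 10 passed the filter of a mean of at least 1 FPKM, as 5768 features did. The list was chosen by function but also by earlier results of these libraries, namely the FPKM differences between the overexpression strains and WT, among them the higher HXK1, so the levels of the 10 genes are given as a description with standard errors and without p-values. Tests are given for 46 other genes of the same pathways, whose lists were also drawn up with earlier results known, so their counts are not independent evidence.

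RNA was sequenced from 2 independent cultures of each of 5 strains, all in the BY4741 background and without further treatment. PRP22-OE, LSM5-OE, TIF35-OE and UTP6-OE each carried 1 essential gene under its own promoter and terminator on a low-copy centromeric plasmid, and WT was the control for each of them. Every culture grew in liquid -URA medium with 2% glucose and was collected at an OD600 of 0.4. URA3, which BY4741 lacks and the plasmid carries, lay between 624.7 and 937.5 FPKM in all 10 cultures, those labelled WT included. For the RNA samples the methods do not say whether WT held the empty vector used as control in the lifespan assay. FPKM is the number of sequenced fragments scaled to the length of the gene and the size of the library.

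The overexpressed gene was higher in its own strain than in WT in each case, with log2 fold changes of 1.95 for LSM5, 1.37 for TIF35, 1.32 for UTP6 and 1.08 for PRP22 (adjusted p of 0.0113, 1.05e-05, 9.86e-05 and 0.00016 from limma). The LSM5 call was lost with only the libraries compared (adjusted p = 0.0842), and LSM5, shorter than the fragments, lay above both WT cultures in the other overexpression strains too, with log2 fold changes of 1.05 in TIF35-OE (adjusted p = 0.0374, and 0.0544 with the replicate block), 0.74 in UTP6-OE and 0.70 in PRP22-OE (0.111 and 0.158). STE2 and BAR1, genes of MATa cells, lay at 419.6 FPKM or more and 130.1 FPKM or more in every culture, and STE3 of MATalpha cells at most at 17.3 FPKM. The spacing of low values put the depth of the libraries between 13453530 and 17366474 fragments and the fragment length at 309 to 314 bases in 7 libraries. It was 282 to 284 bases in 3 others, namely culture 2 of PRP22-OE and culture 1 of both UTP6-OE and TIF35-OE. The shortest of the 10 genes, MIG2, has 1149 bases, far above these lengths.

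In textbook accounts, Snf3p and Rgt2p respond to glucose by sending Mth1p and Std1p to degradation, which frees the hexose transporter genes from the repressor Rgt1p. Mig1p and Mig2p hold down genes for other carbon sources, and Mig1p is opposed by the Snf1p kinase. Hxk2p is the main kinase on glucose and takes part in repression, whereas HXK1 and GLK1 are transcribed more when glucose runs low. Deletion of HXK2 is known to lengthen replicative lifespan in yeast.

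The upstream regions of the kinase genes differ in letters tied to these controls, and short stretches are shown here. The levels of the 10 genes are given further on, and a link between matches and levels was not tested. Sequences are from the RefSeq R64 assembly of S288C, whose gene identifiers the deposited table shares, and run 5′ to 3′ along the strand of the gene. Over the 500 bases before the start codon of 6000 protein-coding genes, both strands were searched for AGGGG, the stress response element, for the core bound by Mig1p, which is GCGGGG in one form, GTGGGG in another, and otherwise CCGGGG or else CTGGGG, and for CGGANNA, the core bound by Rgt1p. No match of one kind shared letters with a match of another kind in the regions of the 10 genes. A match is only a run of letters, and these regions can hold parts of neighbouring genes or transcripts. AGGGG occurred at least once in 34.1% and at least 3 times in 1.83% of these regions. HXK1 and GLK1 had 3 matches each, EMI2 and MIG2 had 2, RGT2, MTH1 and STD1 had 1, and HXK2, SNF3 and MIG1 had 0. EMI2 lay above WT in all 4 overexpression strains, and MIG2 in LSM5-OE and PRP22-OE only. Whether this has to do with the number of matches was not tested. Matches to the Mig1p core, found in 22.7% of all regions, numbered 4 in MIG1, 2 each in HXK1, SNF3 and MTH1, 1 each in GLK1, EMI2 and MIG2, and 0 in HXK2, RGT2 and STD1. The capitals mark AGGGG or its complement in the first 3 lines and the Mig1p core in the last 3.
HXK1 chrVI:255510-255539 (minus strand): cccactattctgCCCCTttgaaactcccgc
GLK1 chrIII:50652-50681 (plus strand): tcaacccctttcAGGGGgccccctatcttg
EMI2 chrIV:1476814-1476843 (minus strand): ggtgggcccttcAGGGGtagttgcctgcgt
HXK1 chrVI:255336-255365 (minus strand): gtttctttctccCCCCGGattttggtacct
GLK1 chrIII:50608-50637 (plus strand): gcggcgcttgcaCCCCGCattataagtggt
EMI2 chrIV:1476766-1476795 (minus strand): gtgacaaaaaacGCGGGGcatccagaaagt

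Of the 4 matches to the Mig1p core upstream of MIG1, all but 1 lay beyond the 151 bases that separate this gene from its upstream neighbour. MIG2 had 5 matches to the Rgt1p core, where 2.48% of all regions had at least 3 and 42.0% at least 1. STD1 had 2 and HXK2 and MIG1 had 1 each, while the remaining 6 genes had 0. One stretch is shown for MTH1, with the Mig1p core in capitals, and one each for MIG2, STD1 and HXK2, with the Rgt1p core in capitals.
MTH1 chrIV:1016155-1016184 (minus strand): cgggaaaaaggtCCGGGGaaatggagtccg
MIG2 chrVII:95536-95565 (plus strand): ggagacatccaCGGAGCAcccgcaaaactg
STD1 chrXV:417932-417961 (minus strand): ttttgaaaacaCGGAAAAtcttttagcgaa
HXK2 chrVII:23522-23551 (plus strand): tcgcgggcagtTTTTCCGgtcgatcgacat

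Within a pair the coding sequences were alike but distinct. The share of identical bases among those aligned was 77.8% for HXK1 and HXK2, 69.0% for GLK1 and EMI2, 68.2% for SNF3 and RGT2, 68.3% for MTH1 and STD1, and 64.9% for MIG1 and MIG2. The longest run shared by the genes of a pair was 23 bases, in HXK1 and HXK2, against reads of 150 bases according to the methods.

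Among the kinases, HXK1, GLK1 and EMI2 were higher than WT in both cultures of all 4 overexpression strains, while HXK2 was nowhere higher in both and was lowest in UTP6-OE. HXK1 (YFR053C, chromosome VI, 253592 to 255049, minus strand) encodes a hexokinase that acts on glucose and fructose. Its levels were 314 and 317 FPKM in WT, 716 and 706 in LSM5-OE, 659 and 691 in TIF35-OE, 683 and 687 in UTP6-OE, and 856 and 769.8 in PRP22-OE. All 8 cultures of the overexpression strains thus lay at more than 2 times the level of either WT culture, and PRP22-OE lay above all other cultures. The log2 difference from WT was 1.36 in PRP22-OE, 1.17 in LSM5-OE, 1.12 in UTP6-OE and 1.10 in TIF35-OE, each with a standard error of 0.06. TIF35-OE and UTP6-OE overlapped with each other.

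**Figure D1:**
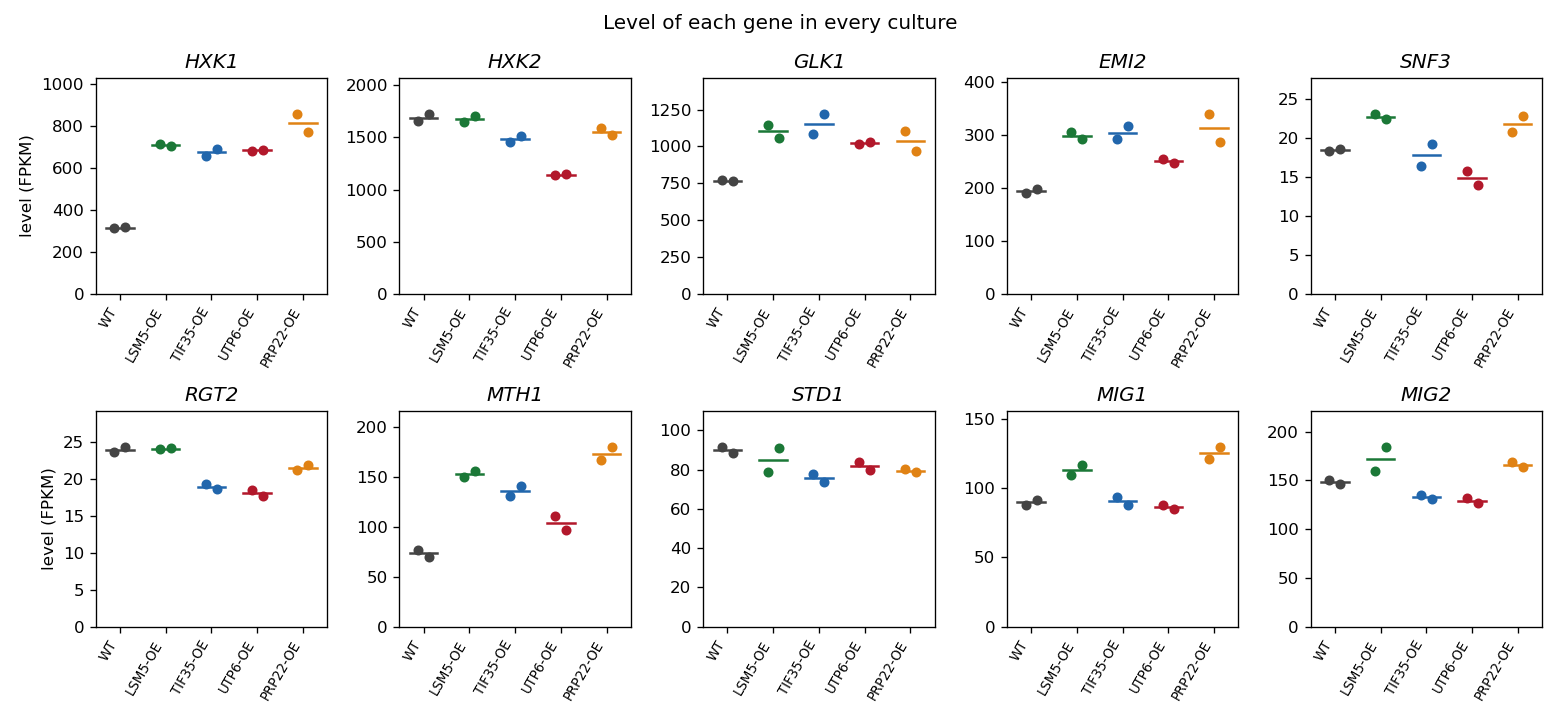
Level in FPKM (vertical axes, from 0) of each of the 10 genes in every culture of the 5 strains (horizontal axes); points are the 2 cultures of a strain and bars their mean. HXK1 sits at 314 and 317 FPKM in WT and at 659 or more elsewhere, whereas HXK2 is lowest in UTP6-OE, at 1140.2 and 1148.4.

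HXK2 (YGL253W, chromosome VII, 23935 to 25395, plus strand) had the highest level of the 10 genes in every culture. It stood at 1656 and 1723 FPKM in WT, 1644 and 1703 in LSM5-OE, 1454 and 1513 in TIF35-OE, 1592 and 1522 in PRP22-OE, and 1140.2 and 1148.4 in UTP6-OE. LSM5-OE overlapped with WT, and the other 3 strains lay below both WT cultures. The log2 difference was -0.56 in UTP6-OE, with a standard error of 0.05, followed by -0.19 in TIF35-OE, while PRP22-OE was at -0.12 and LSM5-OE at -0.01.

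GLK1 (YCL040W, chromosome III, 50838 to 52340, plus strand) encodes glucokinase, which phosphorylates glucose but not fructose. Its levels were 773 and 763 FPKM in WT, 1149 and 1060.2 in LSM5-OE, 1086 and 1218 in TIF35-OE, 1018 and 1027 in UTP6-OE, and 1102 and 967 in PRP22-OE. Every overexpression culture was above both WT cultures, and each strain overlapped with the next in the order of the 4 means. The log2 differences were 0.52, 0.58, 0.41 and 0.43 in the order just given, with a standard error of 0.08.

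EMI2 (YDR516C, chromosome IV, 1474974 to 1476476, minus strand), the paralog of GLK1, lay at 191 and 197 FPKM in WT. It was at 304 and 292 FPKM in LSM5-OE, 291 and 317 in TIF35-OE, 253 and 247 in UTP6-OE, and 338 and 287 in PRP22-OE. UTP6-OE was again the lowest of the 4 strains, apart from the other 3, which overlapped. The log2 differences ranged from 0.37 in UTP6-OE to 0.68 in PRP22-OE, with a standard error of 0.08.

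**Figure D2:**
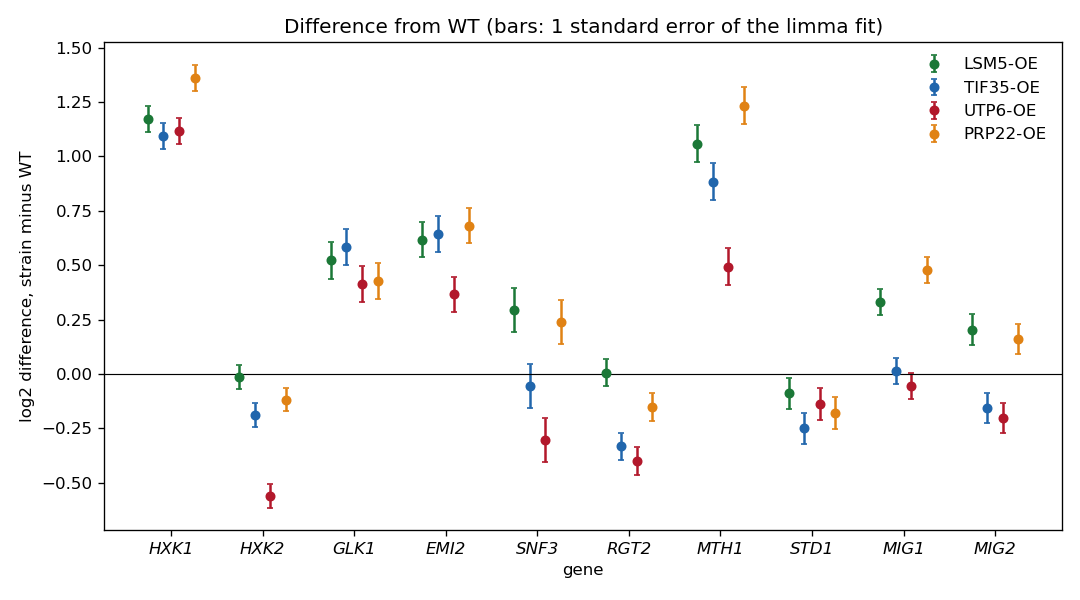
Log2 difference of each strain from WT (vertical axis) for the 10 genes (horizontal axis); points are the 4 overexpression strains and bars 1 standard error of the limma fit of all 10 libraries. HXK1, GLK1, EMI2 and MTH1 lie above 0 in all 4 strains, while SNF3, MIG1 and MIG2 lie higher in LSM5-OE and PRP22-OE than in TIF35-OE and UTP6-OE.

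The make-up of the kinase transcripts moved with these levels. Of the summed FPKM of the 4 kinase genes, HXK2 held 56.4% and 57.4% in the WT cultures, 43.1% and 45.3% in LSM5-OE, 41.7% and 40.5% in TIF35-OE, 36.9% and 36.9% in UTP6-OE, and 40.9% and 42.9% in PRP22-OE. HXK1 held 10.7% and 10.6% in WT and between 18.5% and 22.1% in every other culture. These shares come from within a library and do not depend on scaling between libraries. The sum itself was 2933.5 and 3000.4 FPKM in WT and close to it in UTP6-OE, at 3094.0 and 3110.1, whereas the cultures of the other 3 strains lay between 3490.0 and 3888.2. The UTP6-OE cultures thus had the shares farthest from WT for HXK2 and the sum nearest to it.

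**Figure D3:**
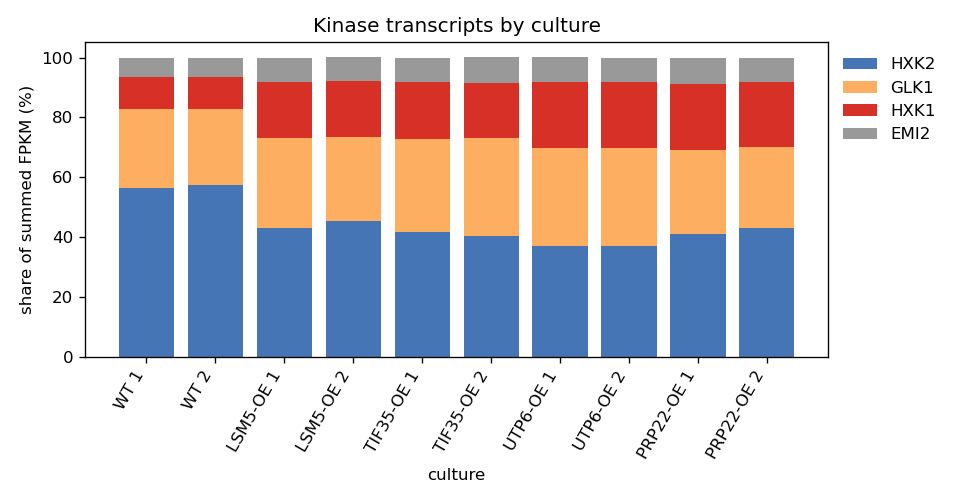
Share of each gene in the summed FPKM of HXK1, HXK2, GLK1 and EMI2 (vertical axis, percent, from 0) in each of the 10 cultures (horizontal axis); each bar adds up to the whole of 1 culture. HXK2 takes 56.4% and 57.4% in WT and at most 45.3% in every other culture.

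The sensor genes had the lowest levels of the 10. SNF3 (YDL194W, chromosome IV, 111580 to 114234, plus strand), the sensor of low glucose, was at 18.2 and 18.5 FPKM in WT, 23.0 and 22.4 in LSM5-OE, 16.3 and 19.2 in TIF35-OE, 20.8 and 22.8 in PRP22-OE, and 15.7 and 14.0 in UTP6-OE. LSM5-OE and PRP22-OE lay above WT, UTP6-OE lay below it and TIF35-OE straddled it. The log2 difference was 0.30 in LSM5-OE and 0.24 in PRP22-OE, against -0.30 in UTP6-OE and -0.05 in TIF35-OE, with a standard error of 0.10. That of TIF35-OE changed sign, to 0.03, after the libraries were rescaled by the median of ratios. The smallest value rests on about 515 estimated fragments, which gives a counting error of 4.4%.

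RGT2 (YDL138W, chromosome IV, 213351 to 215642, plus strand), the sensor of high glucose, had 23.7 and 24.3 FPKM in WT, 24.1 and 24.2 in LSM5-OE, 19.3 and 18.6 in TIF35-OE, 21.3 and 21.9 in PRP22-OE, and 18.5 and 17.7 in UTP6-OE. LSM5-OE fell within the WT values, and the other 3 strains were below them and apart from each other. The log2 differences were -0.40 for UTP6-OE, -0.33 for TIF35-OE and -0.15 for PRP22-OE, with a standard error of 0.06.

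Of the corepressor genes, MTH1 was higher than WT in every overexpression culture and STD1 was not above both WT cultures in any. MTH1 (YDR277C, chromosome IV, 1014401 to 1015702, minus strand) had 77.3 and 69.8 FPKM in WT, 151 and 157 in LSM5-OE, 131 and 141 in TIF35-OE, 111 and 96.5 in UTP6-OE, and 167 and 180.0 in PRP22-OE. The 5 strains did not overlap at all, in the order WT, UTP6-OE, TIF35-OE, LSM5-OE and PRP22-OE. The log2 differences were 0.49, 0.88, 1.06 and 1.23 in the same order, with a standard error of 0.09. STD1 (YOR047C, chromosome XV, 416347 to 417681, minus strand) lay between 73.7 and 91.4 FPKM in all 10 cultures. TIF35-OE, at 77.6 and 73.7, was the lowest strain, and LSM5-OE, at 78.6 and 91.2, overlapped with WT, at 91.4 and 88.8. UTP6-OE had 83.9 and 79.7 FPKM and PRP22-OE had 80.2 and 78.7. The log2 differences of STD1 lay between -0.25 and -0.09, with a standard error of 0.07.

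Of the DNA-binding repressors, MIG1 (YGL035C, chromosome VII, 431548 to 433062, minus strand) was at 87.6 and 91.9 FPKM in WT. It was at 109 and 117 in LSM5-OE and at 121 and 129.6 in PRP22-OE, above both WT cultures. TIF35-OE, at 93.4 and 87.8, and UTP6-OE, at 87.6 and 85.0, overlapped with WT. The log2 differences were 0.33 and 0.48 in LSM5-OE and PRP22-OE and 0.01 and -0.06 in TIF35-OE and UTP6-OE, with a standard error of 0.06, and rescaling turned that of UTP6-OE to 0.02. MIG2 (YGL209W, chromosome VII, 95858 to 97006, plus strand) had 150.4 and 147 FPKM in WT, 159 and 184 in LSM5-OE, 135 and 131 in TIF35-OE, 169 and 164 in PRP22-OE, and 132 and 126 in UTP6-OE. It was thus above WT in the same 2 strains as MIG1 and below WT in the other 2, by log2 differences between -0.20 and 0.20, with a standard error of 0.07.

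Ratios between the genes of a pair within a culture do not depend on how libraries were scaled. HXK1 stood at 0.190 and 0.184 of HXK2 in the WT cultures, 0.436 and 0.415 in LSM5-OE, 0.453 and 0.457 in TIF35-OE, 0.599 and 0.598 in UTP6-OE, and 0.538 and 0.506 in PRP22-OE. The mean ratio was therefore between 2.27 and 3.2 times that of WT, with UTP6-OE the highest. MTH1 stood at 0.846 and 0.787 of STD1 in WT, so that STD1 was the higher of the 2, and at 1.21 or more in every overexpression culture, so that MTH1 was. The MTH1 to STD1 ratio reached 2.08 and 2.29 in PRP22-OE.

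The ratio of SNF3 to RGT2 was 0.769 and 0.762 in WT and above these values in every other culture, from 0.790 in 1 UTP6-OE culture to 1.04 in 1 PRP22-OE culture. That of MIG1 to MIG2 was 0.582 and 0.627 in WT, and the lowest value in an overexpression culture was 0.634, in LSM5-OE, just above. GLK1 stood at 4.06 and 3.87 times EMI2 in WT. The mean of this ratio went from 3.31 in PRP22-OE, which was 0.836 times that of WT, to 4.09 in UTP6-OE, which overlapped with WT.

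**Figure D4:**
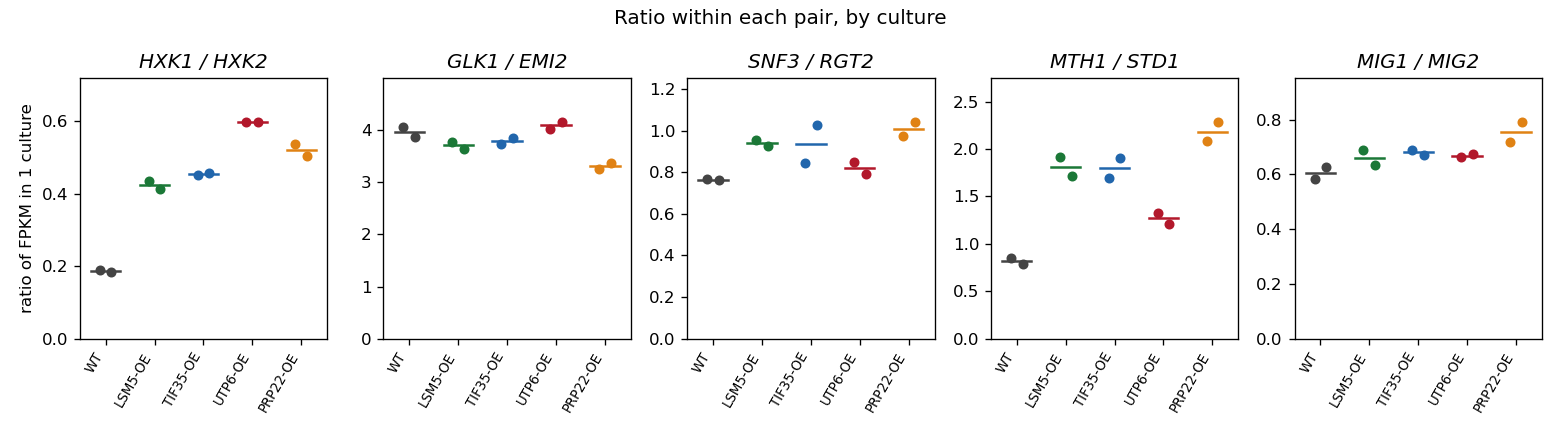
Ratio of FPKM between the 2 genes of each pair within 1 culture (vertical axes, from 0) in the 5 strains (horizontal axes); points are cultures and bars their means. HXK1 over HXK2 is 0.190 and 0.184 in WT and 0.415 or more elsewhere, and MTH1 over STD1 passes 1 only outside WT.

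An adjusted p of at most 0.05 in the fit was reached by 5 of the 10 genes in LSM5-OE (background 7.65% of all features tested), 7 in TIF35-OE (background 30.3%), 6 in UTP6-OE (background 29.1%) and 5 in PRP22-OE (background 19.3%). Both cultures lay above both WT cultures for 7 of the genes in LSM5-OE (background 24.1%), 4 in TIF35-OE (23.1%), 4 in UTP6-OE (26.1%) and 7 in PRP22-OE (24.4%). Both lay below for 0, 4, 5 and 3 of the genes in this order, with backgrounds of 25.5%, 49.3%, 45.0% and 40.3%. Since the genes were listed with these contrasts known, nothing is read from these counts. Without the first WT culture 2 of the genes passed in LSM5-OE, and without the second one 3 did, with 4 in TIF35-OE. The median log2 difference of the 10 genes was 0.33 in PRP22-OE and 0.31 in LSM5-OE, where that of all features was -0.05 and -0.01. In UTP6-OE it was -0.10 against -0.07, and in TIF35-OE -0.02 against -0.10.

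Other genes of the glucose pathways, 46 in 6 lists, were tested in the same fit of log2(FPKM + 0.5) over all 10 libraries, with two-sided p-values adjusted by the Benjamini-Hochberg method over all features. In LSM5-OE 4 rose (background 4.7%) and 1 fell (2.95%). In TIF35-OE 5 rose (9.62%) and 14 fell (20.7%), of which RGT1, ADR1, HXT2 and SUC2 were the 4 still called after rescaling by the median of ratios. In UTP6-OE 6 rose (9.95%) and 11 fell (19.1%). In PRP22-OE 7 rose (7.09%) and 2 fell (12.2%). Rescaling turned the balance in TIF35-OE to 10 higher and 4 lower, and that in UTP6-OE to 9 and 10. All strains share the same 2 WT cultures, and without the first or the second of them the calls numbered 2 and 2 in LSM5-OE, 6 and 5 in TIF35-OE, 12 and 11 in UTP6-OE, and 3 and 4 in PRP22-OE. In TIF35-OE 5 and 10 were called without its first or second culture and 11 and 10 without the first or second UTP6-OE culture. In UTP6-OE 11 were called without its second culture, in PRP22-OE 4 without its first, and in LSM5-OE 3 without any 1 culture of the other overexpression strains. Of the 50 calls, 11 held under all 20 alternatives: HXT4 in each strain, ADR1 in TIF35-OE and UTP6-OE, and GPA2, RGS2, HXT2, SUC2 and JEN1 in UTP6-OE.

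**Figure D5:**
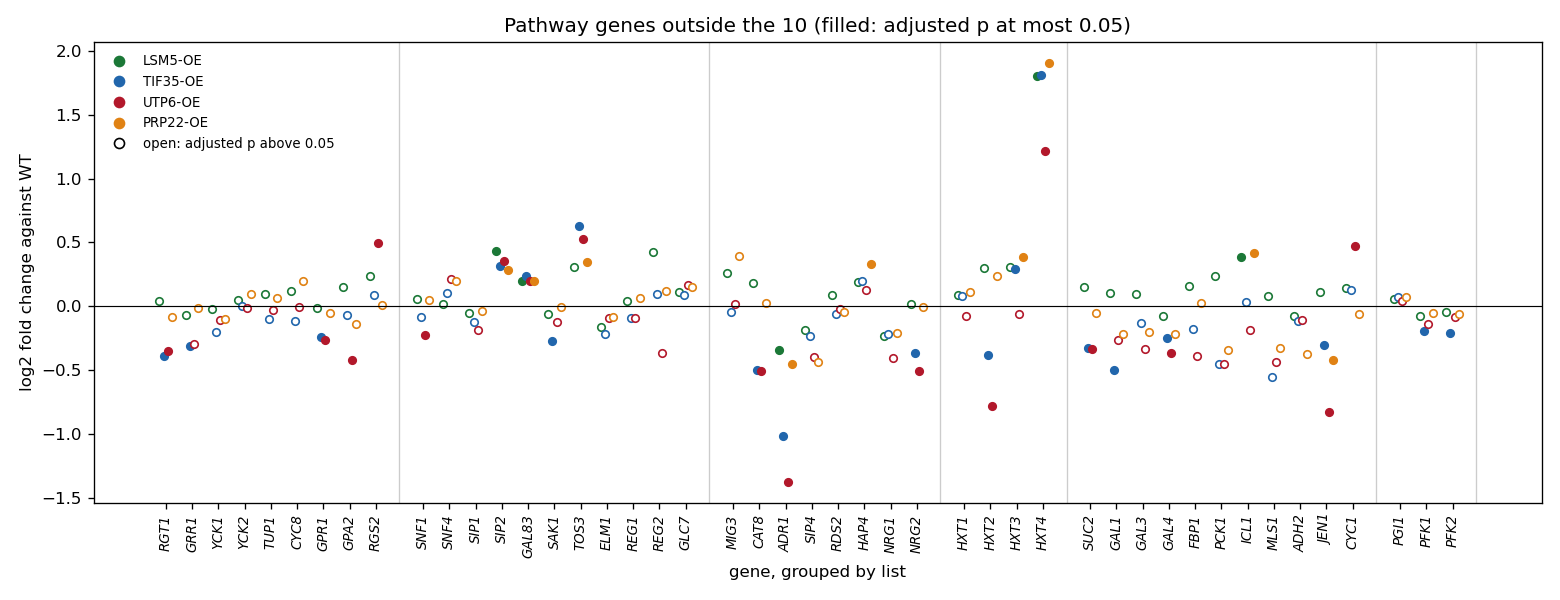
Log2 fold change against WT (vertical axis) of the 46 pathway genes outside the 10, in 6 lists separated by grey lines (horizontal axis); colours are the 4 strains, filled points have an adjusted p of at most 0.05 from limma and open points a higher one. HXT4 is filled and above 0 and ADR1 filled and below 0 in all 4 strains.

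The hexose transporter genes controlled by Rgt1p split. HXT4 rose in every strain, from 157 and 149.9 FPKM in WT to 574 and 506 in LSM5-OE, 509 and 572 in TIF35-OE, 358 and 357 in UTP6-OE, and 636 and 523 in PRP22-OE. On the log2 scale the fold changes were 1.81, 1.81, 1.22 and 1.91 (standard error 0.11, adjusted p from 2.69e-05 to 0.000153 from limma). HXT2, a transporter gene induced by low glucose, fell in UTP6-OE from 1152 and 1192 FPKM to 681 and 683 (log2 fold change -0.78, adjusted p = 0.000524) and in TIF35-OE by 0.38 (adjusted p = 0.0151). It did not pass in LSM5-OE (0.30) or PRP22-OE (0.24). HXT3 rose in PRP22-OE by 0.38 and TIF35-OE by 0.29, with adjusted p of 0.0167 and 0.0333. The first call was lost with only the libraries compared (0.0644) and the second with the replicate block (0.0521). HXT1, the transporter gene of high glucose, passed in no strain, with log2 fold changes from -0.08 to 0.11.

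Among 8 other regulators, ADR1, the activator of genes for ethanol and fatty acid use, fell in all 4 strains. It stood at 45.5 and 44.2 FPKM in WT, 33.2 and 37.5 in LSM5-OE, 21.0 and 22.9 in TIF35-OE, 16.6 and 17.3 in UTP6-OE, and 33.1 and 32.1 in PRP22-OE. The log2 fold changes were -0.34, -1.02, -1.38 and -0.45 (adjusted p of 0.0379, 0.000145, 1.57e-05 and 0.00571 from limma). The call in LSM5-OE was lost with the replicate block (adjusted p = 0.0503) and with only the libraries compared (0.181). NRG2, a repressor of glucose-repressed genes, and CAT8, an activator of gluconeogenic genes, fell in TIF35-OE and UTP6-OE, with log2 fold changes of -0.37 and -0.51 for NRG2 (adjusted p of 0.0327 and 0.00938 from limma) and -0.50 and -0.51 for CAT8 (0.0341 and 0.0329). CAT8 was at 8.06 and 7.66 FPKM in WT and missed the threshold in both strains with only the libraries compared (0.0585 and 0.0722). HAP4, the activator of respiration genes, rose in PRP22-OE by 0.33 (adjusted p = 0.0166).

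Of the 11 genes of the Snf1p kinase and its phosphatase, SIP2 and GAL83 rose in all 4 strains. Both encode alternative beta subunits of the kinase. SIP1, which encodes another, was called in no strain, with log2 fold changes from -0.19 in UTP6-OE to -0.04 in PRP22-OE. SIP2 was at 40.7 and 42.0 FPKM in WT and between 50.1 and 56.3 in the overexpression cultures, with log2 fold changes from 0.28 to 0.43. GAL83 was at 116 and 115 FPKM in WT and between 129 and 138 elsewhere, with log2 fold changes of 0.20 to 0.24. In LSM5-OE both calls were lost with only the libraries compared (adjusted p of 0.0842 and 0.188), as was that of GAL83 in PRP22-OE (0.0506). TOS3, one of the kinases that activate Snf1p, rose by 0.63 in TIF35-OE, by 0.53 in UTP6-OE and by 0.35 in PRP22-OE and missed the threshold in LSM5-OE (0.31, adjusted p = 0.0506), and SAK1, another of them, fell in TIF35-OE by 0.27. SNF1, the catalytic subunit gene, named after its values were seen, fell in UTP6-OE from 87.7 and 90.8 FPKM to 77.8 and 74.5 (log2 fold change -0.23, adjusted p = 0.0124).

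In the list of sensor signalling, 0 of 9 genes were called in LSM5-OE (background 7.65% of all features) and in PRP22-OE (19.3%). In TIF35-OE 3 fell (20.7%), and in UTP6-OE 3 fell (19.1%) and 1 rose (9.95%). RGT1 itself fell in both, from 18.1 and 19.1 FPKM to 13.6 and 14.5 for TIF35-OE and 14.9 and 14.0 for UTP6-OE, with log2 fold changes of -0.39 and -0.35 (adjusted p of 0.0162 and 0.0244). GRR1, part of the ubiquitin ligase that marks Mth1p and Std1p, fell in TIF35-OE by 0.31 (adjusted p = 0.048), a call lost after rescaling (0.124). In UTP6-OE, GPA2, which encodes the G-protein alpha subunit coupled to the glucose receptor Gpr1p, fell by 0.42, and RGS2, which encodes its inhibitor, rose by 0.50 (adjusted p of 0.00122 and 0.00537).

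Of the 11 other genes repressed on glucose, 1 was called in LSM5-OE, 4 in TIF35-OE, 4 in UTP6-OE and 2 in PRP22-OE, where the background of calls was that given for the 10 genes. JEN1, the lactate and pyruvate transporter gene, fell in 3 strains, from 27.6 and 24.6 FPKM in WT to 14.3 and 14.5 in UTP6-OE (log2 fold change -0.83, adjusted p = 0.000612), with -0.42 in PRP22-OE and -0.31 in TIF35-OE (0.0195 and 0.0449). The latter 2 calls were lost with only the libraries compared (0.0795 and 0.0651). SUC2, the invertase gene and a classic target of Mig1p, was singled out after its values were seen. It fell from 71.2 and 72.3 FPKM to 56.3 and 58.0 for TIF35-OE and 58.9 and 54.5 for UTP6-OE (adjusted p of 0.00402 and 0.00267). ICL1, a glyoxylate cycle gene, rose by 0.42 in PRP22-OE and by 0.39 in LSM5-OE (adjusted p of 0.0187 and 0.0481), and both calls were lost with only the libraries compared (0.0589 and 0.121). GAL1, the galactokinase gene, fell in TIF35-OE by 0.50, and CYC1, a cytochrome c gene, rose in UTP6-OE by 0.47 (adjusted p of 0.0407 and 0.0197), the first of them lost with only the libraries compared (0.105). After phosphorylation, PFK1 and PFK2, the subunits of phosphofructokinase, fell in TIF35-OE by 0.20 and 0.21, calls that were lost after rescaling (adjusted p of 0.164 and 0.138), and PGI1 passed in no strain.

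Among all other tested features, the 5 whose 4 log2 differences lay nearest to those of HXK1, by root mean square, were YJR115W, GPH1, USV1, ICY1 and HXT7, at distances of 0.12 to 0.21 on the log2 scale over the 4 strains. GPH1, the glycogen phosphorylase gene, had log2 differences of 1.44 in PRP22-OE, 1.38 in UTP6-OE, 1.13 in LSM5-OE and 1.04 in TIF35-OE. Nearest to MTH1 were GLC3, GLG1, RTC2, ZNF1 and GCV1, at distances of 0.09 to 0.15. They were picked for this likeness, which is therefore no finding about them. GLC3, the gene of the glycogen branching enzyme, had log2 differences of 0.65 in UTP6-OE and 1.27 in PRP22-OE. Neither HXK2 nor the sensor and MIG genes reached a log2 difference of 1 in any strain, and they were not compared in this way.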

How the data were processed

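The authors deposited FPKM per culture in 2 tables that held the same value in all 58240 cells, although one is named raw reads, so no counts were tested. Their methods name HISAT2 and featureCounts on the S288C genome, the labels name STAR and RSEM, and the program behind the FPKM is not given in the sources used here. Samples were grouped by their titles. Fits used limma 3.58.1 in R 4.3.3 (lmFit, then eBayes with a trend) on log2(FPKM + 0.5), with 5 residual degrees of freedom, in place of the authors' DESeq2, which needs counts. The fit was tested on simulated data with independent noise and without a shift between libraries. Such a run cannot show how the fit fares where libraries are shifted. Fragments were estimated from the spacing of values under 4 FPKM in genes of 450 to 2500 bases, of which 75.0% to 92.9% lay within 0.15 of a whole number. They are estimates, used for precision and in 1 alternative. Other steps used Python 3.11.15. With 2 cultures per strain no permutation of labels could reach the usual threshold.

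The members and lists were chosen with earlier results of these data known. The text names all 10 members, the 4 overexpressed genes and up to 4 called genes of each list by size. It also names the 5 nearest patterns for members with a log2 difference of at least 1. SNF1 and SUC2 were added after their values were seen, and some genes that were not called are named too. By its largest change GAL4 came before SUC2 in their list, at -0.36 in UTP6-OE against -0.34. Culture numbers were not taken as a pairing of the strains in the main fit. Differences between first and second cultures correlated between strains with r from -0.36 to 0.43 over all tested features. In features of at least 400 bases r ran from -0.24 to 0.20. Among marker genes, MFA1, MFA2, MFALPHA1, MFALPHA2, LEU2 and MET17 matched no feature under these names and were not analysed here. HIS3, disrupted in BY4741, lay between 147.8 and 246.8 FPKM.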

Additional observations from a re-analysis of the deposited data

Results flagged for a closer look

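On the FPKM as given, strains lay on opposite sides of both WT cultures for several genes. Lying outside WT was common among all tested features. By strain, 23.1% to 26.1% of them lay above both WT cultures and 25.5% to 49.3% below. For SNF3 and MIG2 the difference was not tested, since both were listed with the data known. SNF3 was higher by 0.60 on the log2 scale in LSM5-OE than in UTP6-OE, and UTP6-OE minus PRP22-OE was -0.54. MIG2 differed by 0.36 between LSM5-OE and TIF35-OE and by 0.41 between LSM5-OE and UTP6-OE, and by -0.32 and -0.36 for TIF35-OE and UTP6-OE minus PRP22-OE.

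For pathway genes the strains were compared directly in the same limma fit, with p-values adjusted over all features. Only genes called against WT in at least 1 strain were taken, for strains on opposite sides of both WT cultures. Of these comparisons, those with an adjusted p of at most 0.05 are listed, so the p-values printed here pass by selection. The direct comparisons were not repeated under the alternatives. HXT2 differed in 4 comparisons, with LSM5-OE minus UTP6-OE at 1.08 (adjusted p = 0.00021), UTP6-OE minus PRP22-OE at -1.02 (0.000647), LSM5-OE minus TIF35-OE at 0.69 (0.00436) and TIF35-OE minus PRP22-OE at -0.62 (0.00543). CAT8 was higher in LSM5-OE than in TIF35-OE by 0.68 (adjusted p = 0.0259) and than in UTP6-OE by 0.69 (0.0134). SUC2 was higher in LSM5-OE than in TIF35-OE by 0.47 (adjusted p = 0.00277) and than in UTP6-OE by 0.49 (0.000755).

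ICL1 had LSM5-OE minus UTP6-OE at 0.57 (adjusted p = 0.00507 from limma) and UTP6-OE minus PRP22-OE at -0.60 (0.00807). GPA2 was higher in LSM5-OE than in UTP6-OE by 0.57, than in PRP22-OE by 0.29 and than in TIF35-OE by 0.22 (adjusted p of 0.000444, 0.0254 and 0.0405). SNF1 had LSM5-OE minus UTP6-OE at 0.28 (adjusted p = 0.00654) and UTP6-OE minus PRP22-OE at -0.27 (0.0151). HXT3 was lower in UTP6-OE than in LSM5-OE and TIF35-OE, which exceeded it by 0.37 and 0.35 (adjusted p of 0.0174 and 0.0461), and UTP6-OE minus PRP22-OE was -0.45 (0.0164). No comparison listed for the pathway genes had both strains called against WT. Among those not called were SUC2 and CAT8 in LSM5-OE (adjusted p of 0.14 and 0.529 from limma) and ICL1 in UTP6-OE (0.178). Neither GPA2 in TIF35-OE nor HXT3 in UTP6-OE was called against WT, and the side on which they lay depended on the settings. Over all settings the log2 fold change ran from -0.09 to 0.02 for GPA2 in TIF35-OE and from -0.10 to 0.01 for HXT3 in UTP6-OE.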

How the results depend on the processing

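The sign of the log2 difference held in 38 of 40 combinations of member and strain after rescaling by the median of ratios, and the exceptions were SNF3 in TIF35-OE (-0.05 to 0.03) and MIG1 in UTP6-OE (-0.06 to 0.02). The size moved by at least the spread between cultures of the gene in 14 of the 40. Falls became smaller, such as HXK2 in TIF35-OE (-0.19 to -0.10) and STD1 in UTP6-OE (-0.14 to -0.07), and rises larger, such as HXK1 in TIF35-OE (1.10 to 1.18). Members called lower went from 3 to 1 in TIF35-OE and stayed at 2 in UTP6-OE. Counts of called features depended more on the settings than the signs did, and why was not tested. With only the libraries compared, LSM5-OE had 66 called features, 1 pathway gene and 3 members, and PRP22-OE had 5 pathway genes. Without the 3 libraries with shorter fragments, which leaves 1 culture in 3 strains that is assumed to vary like the others, LSM5-OE had 61 called features (441 with all libraries), 1 pathway gene and 3 members, TIF35-OE 243 (1748), 3 and 4, UTP6-OE 553 (1678) and 8 pathway genes, and PRP22-OE 228 (1114) and 1. In LSM5-OE 8 pathway genes were called after rescaling, 8 in features of at least 400 bases and 2 with the replicate block, and voom on the estimated fragments gave 14 in PRP22-OE. The replicate block, in which the samples share only a number, gave 326 called features in LSM5-OE, 1620 in TIF35-OE, 1574 in UTP6-OE and 1002 in PRP22-OE. With 1 culture left out at a time, the called features ranged from 82 to 360 in LSM5-OE, 721 to 2017 in TIF35-OE, 864 to 1908 in UTP6-OE and 518 to 1255 in PRP22-OE. The pathway genes ranged from 2 to 4, 5 to 22, 11 to 20 and 3 to 11, and the members from 2 to 5, 4 to 8, 4 to 7 and 4 to 7. The share of called features that were higher went from 36.7% to 54.1% in PRP22-OE, 34.2% to 54.4% in UTP6-OE and 31.8% to 57.1% in TIF35-OE after rescaling. A pseudocount in the ratios moved no mean ratio beyond the spread between cultures.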
